A study of Mus musculus with 4 samples.

Results

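The lipoxygenase and leukotriene genes were taken as 10 genes, Alox5, Alox5ap, Lta4h, Ltc4s, Alox12, Alox15, Alox12e, Alox12b, Aloxe3 and Alox8. They were found by their gene names on a mouse genome array, where they had 12 of the 39429 probes and 10 of the 30214 gene names. Colon RNA was measured in 4 groups, Pla2g3+/+ with vehicle (saline), Pla2g3-/- with vehicle, Pla2g3+/+ after azoxymethane (AOM) and Pla2g3-/- after AOM. AOM is a carcinogen that produces tumors in the rodent colon, and it was given at 10 mg/kg into the peritoneum weekly for 6 weeks, with killing 28 weeks after the last dose. All mice were males, 42 weeks old, on a B6.129 (n3) background, and the controls were littermates. Each group was 1 RNA pool on 1 array, so the spread between mice was not measured and no ratio of 2 arrays has a p-value. A pool held 4 mice by the figure legend and 3 to 5 by the deposited design. The legend describes whole descending colon, while the deposited design describes the AOM pools as tissue with colorectal cancer.

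Lipoxygenases add oxygen to arachidonic acid and other polyunsaturated fatty acids. The 5-lipoxygenase branch, found mostly in myeloid cells and mast cells, makes leukotriene A4, from which leukotriene B4, an attractant of neutrophils, and the cysteinyl leukotrienes, which act on vessels and smooth muscle, are formed. The 12- and 15-lipoxygenases make other hydroxy fatty acids in platelets, macrophages and epithelia, and a further set works in the barrier of the skin.

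Signals were expressed relative to the 75th percentile on the same array, and this value is called the relative signal. It compares 1 probe between arrays and gives no order of level between genes. A ratio past 2-fold in either direction was counted. Where 1 of the 2 arrays was not well above background, the ratio is a bound, and where neither was, no ratio was formed. Of the 10 genes, 6 were well above background on all 4 arrays, 3 on some and 1 on none. From probes spotted 3 or more times, the spot error of a log2 ratio was an SD of 0.0813 to 0.0940, which leaves out the spread between mice.

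Between 64.8% and 69.4% of 43020 spots were well above background on each array, and no spot was saturated. The 7 colonocyte markers were above background on every array, with a summed relative signal of 412 and 472 in the Pla2g3+/+ and Pla2g3-/- vehicle pools and of 49.9 and 283 after AOM. The signal of the targeted gene after AOM went against the labels on all 3 of its probes. With vehicle it was not lower in the pool labelled Pla2g3-/- either, at 1.23-fold, 1.06-fold and at least 2.31-fold over Pla2g3+/+. The brightest Pla2g3 probe gave 0.531 in the Pla2g3+/+ and 0.656 in the Pla2g3-/- vehicle pool. In the AOM pools it gave 0.232 and 1.40, a signal 6.01-fold higher in the pool labelled Pla2g3-/-. Whether this probe lies in the deleted part was not given in the sources used here, and every genotype below is that of the label. The all-gene median of the AOM over vehicle ratio was -0.23 (log2) in Pla2g3+/+ and -0.13 in Pla2g3-/- with this scaling, and 0.82 and 0.71 without scaling, so ratios across treatments are read against it.

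With vehicle, the lipoxygenase genes of the 2 genotypes were close to each other. Of 8 genes with a ratio or a bound, 1 was past 2-fold, the epidermal-type lipoxygenase Alox12e, which was lower in the pool labelled Pla2g3-/-. Over all genes, 3.72% were past 2-fold in either direction in this comparison, 2.2% higher and 1.52% lower. The median over the 7 genes with a value was 0.00 (log2), against -0.03 for all genes.

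After AOM, 3 of 9 genes were past 2-fold, and Alox12, Alox12e and Alox15 were each lower in the pool labelled Pla2g3-/-. Over all genes, 26.9% were past 2-fold, 14.3% higher and 12.6% lower. The share in either direction, 33.3%, was near that background, although no gene of the family was higher. The median was -0.39 against 0.02 for all genes.

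AOM over vehicle in Pla2g3+/+ put 5 of 9 genes past 2-fold. Alox12, Alox12e and Alox15 were higher, and Alox12b and Ltc4s were lower. All genes gave 37.4%, with 14.6% higher and 22.8% lower, and the family median was 0.48 against -0.23. Without scaling, the same 3 genes were higher with 3 others, 6 in all, and none was lower. With quantile normalization 3 were higher and 1 was lower. The all-gene median was 0.82 without scaling. The share of all genes past 2-fold was not counted for these settings, so the counts have no background beside them.

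In the pools labelled Pla2g3-/-, AOM over vehicle put 3 of 9 genes past 2-fold, all 3 higher and the same 3 as in Pla2g3+/+. All genes gave 26.4%, with 10% higher and 16.4% lower, and the family median was -0.04 against -0.13. This comparison and the one before share no array, but each shares an array with both comparisons of genotypes.

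**Figure D1:**
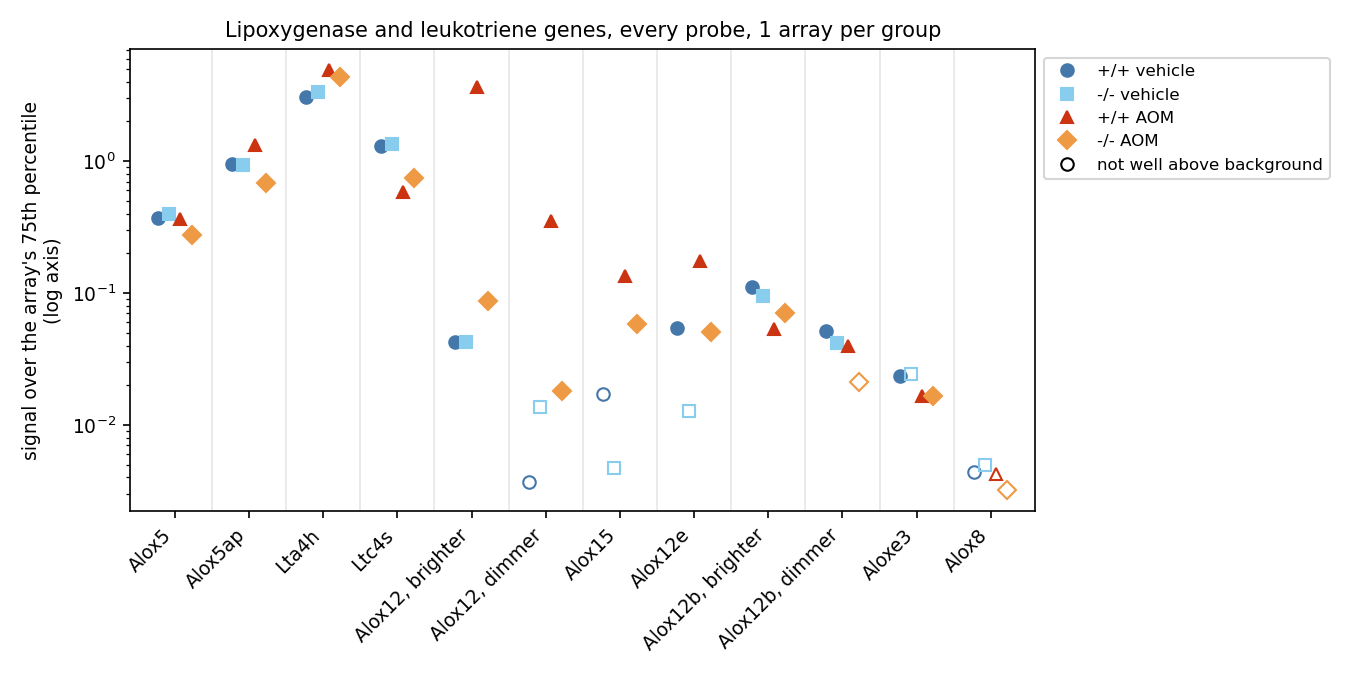
Relative signal (signal over the array's 75th percentile, log axis) of all 12 probes of the 10 genes, with 1 point per array for Pla2g3+/+ (+/+) and Pla2g3-/- (-/-) pools with vehicle or AOM. Open symbols were not well above background. Alox12 stands out on the Pla2g3+/+ AOM array on both probes, while Alox5 lies between 0.277 and 0.396 on all 4 arrays.

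In the 5-lipoxygenase branch no enzyme was past 2-fold between the genotypes. Alox5, the enzyme that makes leukotriene A4, read 0.368 in Pla2g3+/+ and 0.396 in Pla2g3-/- with vehicle, and 0.364 and 0.277 after AOM. The lowest value was that of the Pla2g3-/- AOM pool, 1.31-fold below Pla2g3+/+ AOM, and the other 3 arrays lay close together.

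Alox5ap encodes the membrane protein FLAP, which hands arachidonic acid to 5-lipoxygenase. Its relative signal was 0.945 and 0.933 with vehicle in Pla2g3+/+ and Pla2g3-/-, and 1.32 and 0.682 after AOM. The vehicle pools hardly differed, and the AOM pools lay on either side of them. The ratio between genotypes after AOM, 1.93-fold lower (log2 -0.95) in the pool labelled Pla2g3-/-, fell just short of 2-fold and was past it without scaling (log2 -1.11). The ratio of AOM over vehicle in the Pla2g3-/- pools (log2 -0.45) turned to 0.40 without scaling, as did that of Alox5 (from -0.51 to 0.33).

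Lta4h, whose product hydrolyses leukotriene A4 to leukotriene B4, read 3.09 and 3.38 with vehicle and 4.89 and 4.34 after AOM. Both AOM pools were above both vehicle pools, by 1.59-fold in Pla2g3+/+ and 1.29-fold in Pla2g3-/-. The genotypes differed by 1.13-fold or less under either treatment.

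Ltc4s, which couples leukotriene A4 to glutathione to give leukotriene C4, went the other way. It read 1.31 and 1.34 with vehicle and 0.584 and 0.743 after AOM. Both AOM pools were below both vehicle pools, with a 2.25-fold lower signal in Pla2g3+/+ (log2 -1.17) and 1.80-fold in Pla2g3-/- (log2 -0.85). Neither is independent of the scaling. The ratio in Pla2g3+/+ was -0.15 without scaling and -0.93 with another background correction (normexp) and quantile normalization. It stayed past 2-fold with quantile normalization alone (-1.17) and with scaling by the median (-1.19). The other alternatives return the main ratio by construction, since Ltc4s has 1 probe, well above background on all 4 arrays.

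Markers of the cells in which this branch is known moved with treatment too. The 9 mast cell markers summed to 2.02 and 1.74 with vehicle and to 27.8 and 1.85 after AOM in Pla2g3+/+ and Pla2g3-/-. Mcpt4 and Mcpt1 were the brightest in the Pla2g3+/+ AOM pool, and Kit, named after its values were seen, in each of the others. All 9 were above background in the Pla2g3+/+ AOM pool, 8 in the Pla2g3-/- AOM pool and 6 in each vehicle pool, where Cpa3, Ms4a2 and Fcer1a were not well above background. The 10 neutrophil markers summed to 55.7, 54.9, 94.9 and 72.0 on the arrays in the order Pla2g3+/+ vehicle, Pla2g3-/- vehicle, Pla2g3+/+ AOM and Pla2g3-/- AOM, led by Csf3r on each. These markers did not move alike, since Csf3r stayed between 44.4 and 53.8 while S100a9 read 0.224, 0.155, 35.7 and 0.387. Of 10 neutrophil markers, 6 were higher past 2-fold and none lower for AOM over vehicle in Pla2g3+/+ (median log2 2.98), and after AOM 5 were lower and 2 higher in the pool labelled Pla2g3-/-. The 2 higher were Ltf (27.4-fold) and Ly6g (2.86-fold), named after their values were seen. In the array order above the 8 macrophage markers summed to 28.0, 26.8, 24.2 and 21.1, led by Itgam and Csf1r. That sum ran against most of its genes, since 5 of 7 with a ratio were higher past 2-fold for AOM over vehicle in Pla2g3+/+ (median log2 1.22) and 1, Itgam, was lower (18.7 to 5.95). The 9 tuft cell markers summed to 0.965, 0.817, 1.31 and 0.451, led by Sh2d6 with vehicle and by Avil in the Pla2g3+/+ AOM pool. Here too the sum and the genes differed, with 5 of 7 lower for AOM over vehicle in Pla2g3+/+ (median log2 -1.66) and Avil alone higher (13.6-fold). The part of these cells in the values above was not tested. In pooled tissue RNA, fewer cells of a type and less RNA per cell cannot be told apart.

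The lipoxygenases that changed most are neighbours on chromosome 11. The probes of Alox12, Alox12e and Alox15 lie on the minus strand within 103 kb (mm9). Alox12 encodes platelet-type 12-lipoxygenase, Alox15 the leukocyte-type 12/15-lipoxygenase, and Alox12e the epidermal-type 12-lipoxygenase. The probe sequences behind their values are shown because 2 probes for Alox12 pointed in the same direction. They are copied from the array files in lower case with no stretch marked, and 2 are given by their first 30 bases.

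Alox12, dimmer probe, chr11:70063629-70063688 (mm9, minus strand), all 60 bases: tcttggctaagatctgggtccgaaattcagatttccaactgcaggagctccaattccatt
Alox12, brighter probe, chr11:70055715-70055774 (mm9, minus strand), first 30 bases: acactccacattagtattctaactacaggg
Alox12e, chr11:70129157-70129216 (mm9, minus strand), first 30 bases: caactctatgatatgtgcttgtttagtctt
Alox15, chr11:70159115-70159339 (mm9, minus strand), all 60 bases: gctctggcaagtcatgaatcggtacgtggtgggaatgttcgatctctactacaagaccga

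The Alox15 probe covers 225 bases of the genome with 60 bases and so spans an intron. The files give no exon for the other 3, each of which matches 60 bases of the genome without a gap.

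Alox12 had the widest range of the family. Its brighter probe read 0.0425 in Pla2g3+/+ and 0.0426 in Pla2g3-/- with vehicle, and 3.66 and 0.0864 after AOM. The Pla2g3+/+ AOM pool stood far above the other 3, which lay within a range of about 2-fold. AOM over vehicle was 85.9-fold (log2 6.43) in Pla2g3+/+ and 2.03-fold (log2 1.02) in Pla2g3-/-. Among 19119 genes above background on both Pla2g3+/+ arrays, Alox12 was the 24th from the top. Between genotypes after AOM it was 42.3-fold lower (log2 -5.40) in the pool labelled Pla2g3-/-, the 50th from the bottom of 19124 genes.

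The dimmer Alox12 probe gave the same directions. It was not well above background in either vehicle pool (0.00368 and 0.0138) and read 0.354 and 0.0180 after AOM in Pla2g3+/+ and Pla2g3-/-. In Pla2g3+/+ the rise was at least 21.3-fold, and after AOM the Pla2g3-/- pool was 19.6-fold lower. Both Alox12 ratios that involve the Pla2g3+/+ AOM array stayed past 2-fold in all 10 alternatives, from 4.41 to 7.44 for AOM over vehicle and from -5.57 to -4.30 for the genotypes (log2). The small rise in Pla2g3-/- did not, and ran from 0.41 to 1.87.

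Alox15 was not well above background with vehicle in either genotype (0.0170 and 0.00473) and read 0.135 and 0.0586 after AOM. Both AOM pools were thus above both vehicle pools, by at least 7.91-fold in Pla2g3+/+ and at least 2.58-fold in Pla2g3-/-. Between the AOM pools it was 2.30-fold lower in Pla2g3-/-. With normexp and quantile normalization the rise in Pla2g3+/+ was still past 2-fold, whereas that in Pla2g3-/- (log2 0.78) and the difference of the genotypes (log2 -0.56) were not.

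Alox12e read 0.0542 in Pla2g3+/+ and was not well above background in Pla2g3-/- (0.0127) with vehicle, and it read 0.174 and 0.0507 after AOM. The pool labelled Pla2g3-/- was the lower under both treatments, by at least 2.38-fold with vehicle and 3.42-fold after AOM. AOM pools were above their vehicle pools by 3.20-fold in Pla2g3+/+ and at least 2.23-fold in Pla2g3-/-. All 4 ratios came under 2-fold with normexp and quantile normalization, with log2 values of -0.49, -0.87, 0.81 and 0.43 in that order.

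**Figure D2:**
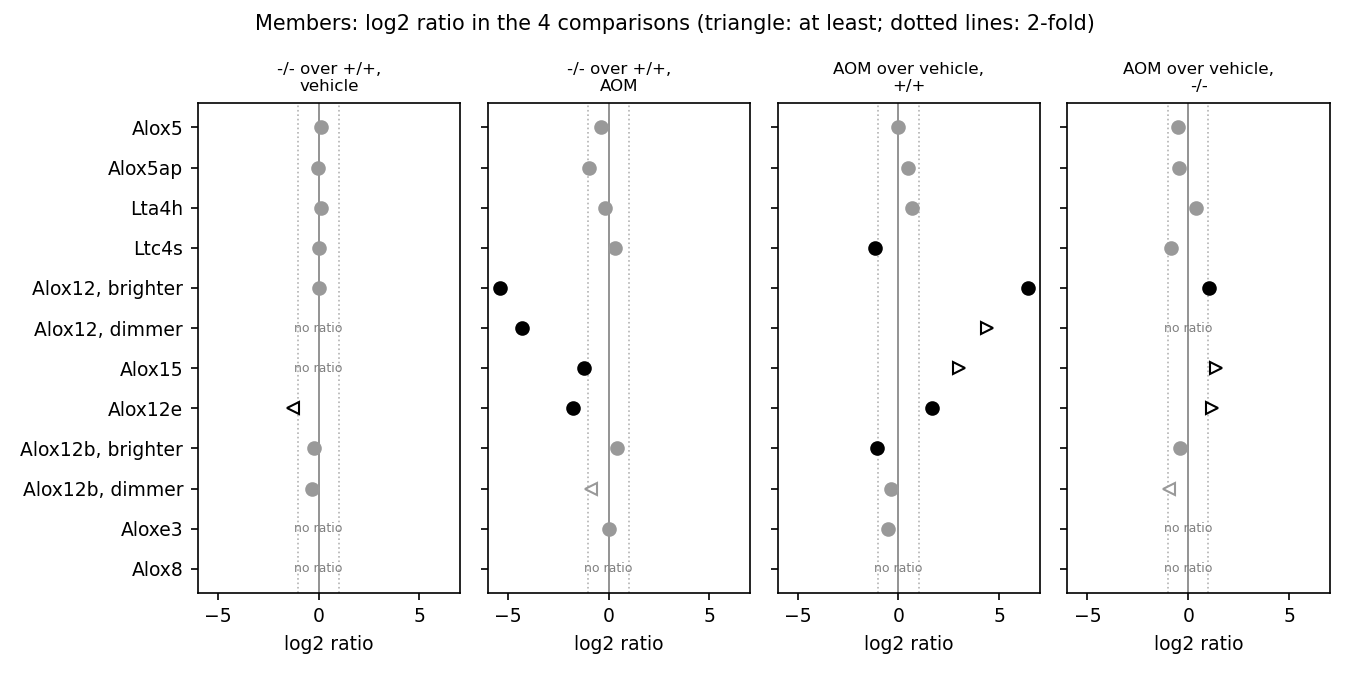
Log2 ratio of each probe in the 4 comparisons, Pla2g3-/- over Pla2g3+/+ with vehicle and after AOM and AOM over vehicle in each genotype. Filled points are ratios of 2 arrays above background, open triangles are bounds, black marks a ratio past 2-fold (dotted lines). Alox12 (brighter probe) and Alox15 are past 2-fold in 3 comparisons and Alox12e in all 4, and without scaling Ltc4s (-0.15) and Alox12b (-0.04) are not past it for AOM over vehicle in Pla2g3+/+.

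The genes whose values over the 4 arrays were most like those of Alox12, by the root mean square difference of centred log2 values among 18082 genes above background on every array, were Dkk2, Hdc, Spock2, Inhba and Mcpt4, with differences of 0.23 to 0.33. Hdc encodes histidine decarboxylase, which makes histamine, Mcpt4 a mast cell chymase, and Dkk2 a secreted modulator of Wnt signals. Hdc read 0.0454 and 0.0423 with vehicle and 4.14 and 0.0612 after AOM in Pla2g3+/+ and Pla2g3-/-, so it too was high on 1 array only. All 5 genes had their highest value on the Pla2g3+/+ AOM array, by 59.3-fold to 122-fold over vehicle. Because they were chosen by likeness to Alox12, this shared peak follows from the choice.

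The mast cell sum followed the same order as Alox12 in that it was high in the Pla2g3+/+ AOM pool alone. AOM over vehicle in Pla2g3+/+ had 8 of 9 mast cell markers higher and 1 lower past 2-fold (median log2 5.01), and after AOM 7 of 9 were lower in the pool labelled Pla2g3-/- (median log2 -2.95). With AOM in Pla2g3-/-, 5 of 8 with a ratio or bound were higher and 2 lower (median log2 1.24). The sum does not show this, since Kit led it in both of these pools and fell from 1.23 to 0.753. The list includes Mcpt4, 1 of the genes chosen above for likeness to Alox12. Platelets are a known source of the Alox12 enzyme, and the 7 platelet and megakaryocyte markers summed to 4.395, 6.61, 9.31 and 5.25 in the array order used above. Pf4 led this sum on every array. Pf4 read 4.12, 6.44, 8.23 and 5.03, whereas Ppbp was not well above background with vehicle and read 0.816 and 0.0272 after AOM, at least 46.6-fold higher than vehicle in Pla2g3+/+ and 30.03-fold lower in the Pla2g3-/- AOM pool. Gp1bb was above background on all 4 arrays (0.0920 to 0.171), Itga2b on both Pla2g3+/+ arrays, and Gp9 and Gp1ba on the Pla2g3+/+ AOM array alone. Gp6 was above background in the Pla2g3+/+ vehicle (0.0582) and Pla2g3-/- AOM (0.0372) pools. It was at least 4.63-fold lower with AOM in Pla2g3+/+, and at least 2.96-fold higher in the Pla2g3-/- than in the Pla2g3+/+ AOM pool. Of the 7 markers, 2 were higher and 1 lower past 2-fold for AOM over vehicle in Pla2g3+/+. Between genotypes after AOM, 1 was higher and 2 were lower in Pla2g3-/-. The 8 Wnt targets known from colon tumors summed to 5.35, 5.08, 57.7 and 4.68, led by Wif1 in the Pla2g3+/+ AOM pool and by Notum in each of the others. All 8 were higher in the Pla2g3+/+ AOM pool than with vehicle. Smooth muscle markers fell on that array alone (492, 518, 28.9 and 467). The part of these differences in tissue content in the Alox12 ratios was not tested.

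**Figure D3:**
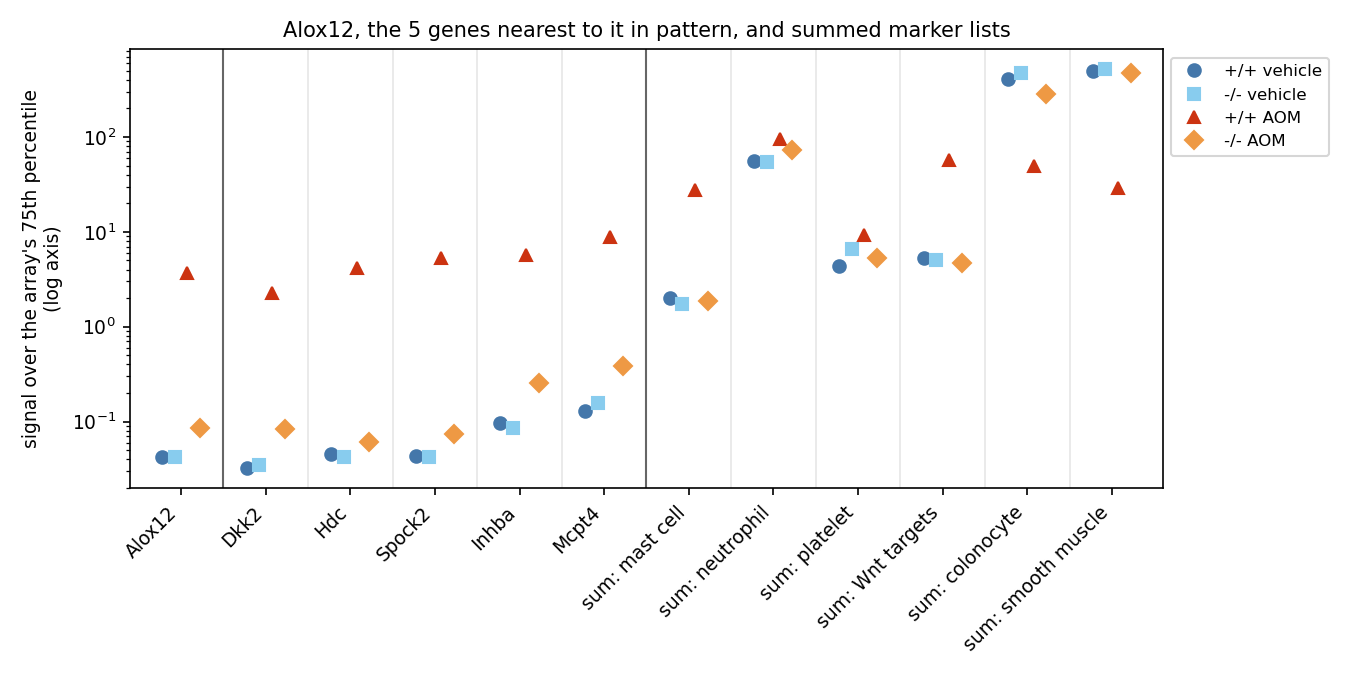
Relative signal on a log axis of Alox12 (brighter probe), of the 5 genes nearest to it in pattern, and of 6 marker lists as the sum over their genes, with 1 point per array. Alox12 (3.66), the 5 genes and the mast cell (27.8) and Wnt target (57.7) sums are highest on the Pla2g3+/+ AOM array, where the colonocyte (49.9) and smooth muscle (28.9) sums are lowest.

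The window of 200 kb on either side of the 3 genes was looked at after their values had been seen, and it held 21 other genes. AOM over vehicle in Pla2g3+/+ put 5 of 18 of them past 2-fold higher and none lower (median log2 0.39), against 14.6% higher over all genes. The largest of these, Bcl6b at log2 1.94, named after its value was seen, was above Alox12e and below Alox12 and Alox15. Between genotypes after AOM, 7 of 19 were lower and 1 was higher (median log2 -0.72), against 12.6% lower over all genes.

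**Figure D4:**
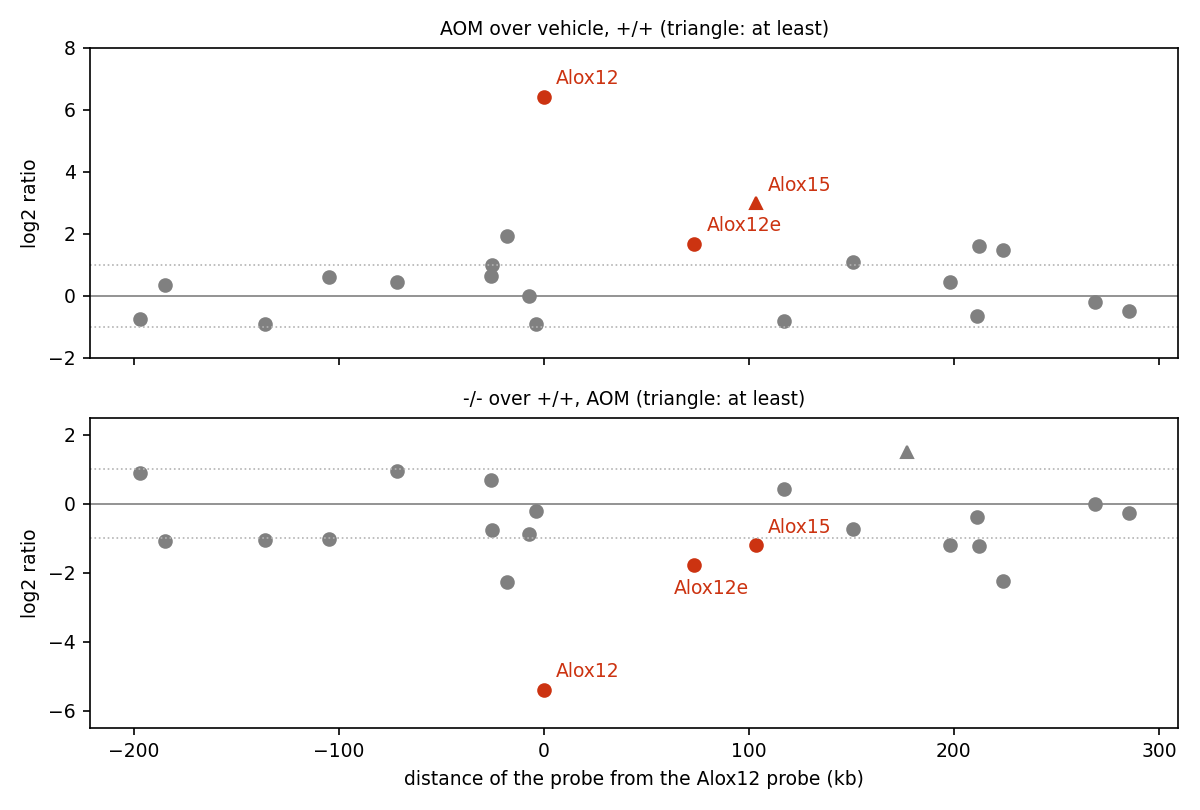
Log2 ratio of genes within 200 kb of the Alox12, Alox12e and Alox15 probes against the distance of the probe from that of Alox12 (kb), for AOM over vehicle in Pla2g3+/+ (top) and Pla2g3-/- over Pla2g3+/+ after AOM (bottom). Named points are the 3 lipoxygenases, gray points the other genes, and triangles are bounds. Alox12 lies at 6.43 in the upper panel and -5.40 in the lower, while the other genes run from -0.92 to 1.94 and from -2.26 to 1.51.

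The sequence upstream of the start was given for 7 of the 10 genes (RefSeq, GRCm38.p6), and Alox5ap, Alox15 and Aloxe3 did not match. The 250 bases before the start of Alox12 and Alox12e are shown because these genes rose together, with the GC box GGGCGG in capitals.

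Alox12, chr11:70255371-70255620 (GRCm38.p6, minus strand): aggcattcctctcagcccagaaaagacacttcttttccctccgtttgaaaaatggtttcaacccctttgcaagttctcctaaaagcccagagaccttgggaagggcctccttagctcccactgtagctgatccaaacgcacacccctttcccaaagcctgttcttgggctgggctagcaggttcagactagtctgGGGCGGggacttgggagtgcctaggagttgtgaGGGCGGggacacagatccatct
Alox12e, chr11:70322531-70322780 (GRCm38.p6, minus strand): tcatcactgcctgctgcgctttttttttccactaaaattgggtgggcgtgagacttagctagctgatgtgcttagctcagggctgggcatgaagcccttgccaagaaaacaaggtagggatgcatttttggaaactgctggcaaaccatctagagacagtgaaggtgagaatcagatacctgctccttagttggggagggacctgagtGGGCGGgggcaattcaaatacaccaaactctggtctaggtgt

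Both strands were searched for 5 motifs, which do not overlap here. The GC box, bound by Sp1-type factors, occurred at 2 positions for Alox12 and 1 for Alox12e, and it was also present for Alox5, Alox12b and Alox8, which were not past 2-fold higher in any comparison with this scaling. It was found in 5 of 7 genes and in 32.7% of 32851 promoters in the same window. The TATA box (TATAAA), AP-1 (TGANTCA), STAT (TTCNNNGAA) and TCF/LEF (CTTTGAT) letters were in none of the 7, and in 12.4%, 6.75%, 7.02% and 3.21% of all promoters.

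Of the barrier lipoxygenases, 1 was above background on all 4 arrays, 1 on some and 1 on none. Alox12b, the 12R-lipoxygenase of the skin, read 0.111 and 0.0949 with vehicle and 0.0534 and 0.0703 after AOM on its brighter probe. Both AOM pools were the lower, and the ratio in Pla2g3+/+ was 2.08-fold lower (log2 -1.06). That probe, chr11:68979536-68979770 (mm9, plus strand), spans an intron as well. The dimmer probe read 0.0514, 0.0417 and 0.0393 and was not well above background (0.0213) in the Pla2g3-/- AOM pool. Its ratio in Pla2g3+/+ was -0.39, and for the genotypes after AOM the probes disagreed in direction, 0.40 on the brighter and at least 1.84-fold lower on the dimmer. The Alox12b ratio in Pla2g3+/+ was past 2-fold in 5 of 10 alternatives.

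Aloxe3, a hydroperoxide isomerase that acts after Alox12b, lay near the limit, at 0.0235 and 0.0243 with vehicle, the latter not well above background, and at 0.0165 in both AOM pools. No ratio was past 2-fold, and the ratio of AOM over vehicle in Pla2g3+/+ (log2 -0.51) turned to 0.51 without scaling. Alox8, the 8-lipoxygenase of mouse skin, was not well above background on any array (0.00320 to 0.00494).

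The 12 squamous epithelium markers summed to 10.4, 8.46, 7.10 and 29.98 in the array order used above. Trp63 read 3.86, 3.49, 3.53 and 3.99, whereas Krt5 led the sum in the Pla2g3-/- AOM pool only. Krt5 read 0.0266 in the Pla2g3+/+ AOM pool and 15.3 in the Pla2g3-/- AOM pool, while Krt1 and Ivl were not well above background on any array. These markers did not move alike. Of 9 with a ratio or bound between genotypes after AOM, 2 were higher past 2-fold in the pool labelled Pla2g3-/- and 2 were lower. Named after their values were seen, Tgm3 was the other higher (64.3-fold), and Krt4 (at least 7.33-fold) and Tgm1 (6.73-fold) were the lower. The part of such epithelium in the Alox12b and Aloxe3 values was not tested.

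The one test the design allowed was a limma model with a term for AOM and a term for genotype over all 4 arrays, which left 1 residual degree of freedom. That residual is the difference between the genotype effects under vehicle and AOM, so the errors come from it and not from the spread between mice. It called 0 of 22709 genes at an adjusted p of 0.05 for AOM, with 3582 at an unadjusted p under 0.05, and 0 for genotype, with 308. Of 9 lipoxygenase genes tested, 2 had an unadjusted p under 0.05 for each factor, Alox15 and Alox12e. The AOM effect was 3.31 on the log2 scale (SE 0.34) for Alox15 and 1.84 (SE 0.30) for Alox12e, with a limma adjusted p of 0.316 for both. The genotype effect was -1.52 (SE 0.34) and -1.94 (SE 0.30), with a limma adjusted p of 0.990 for both. Both genes were below background in part of the arrays, and their signals entered this fit as measured. For Alox12 the AOM effect was 3.72 with a SE of 1.69 (limma adjusted p 0.359), and its AOM ratio in Pla2g3-/- minus that in Pla2g3+/+ was -5.41 on the log2 scale.

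The other genes of the pathway came from a list of 29, of which 28 were on the array and 25 were above background on at least 1 array. With vehicle, 3 of 24 with a ratio or bound were past 2-fold, 1 higher and 2 lower in the pool labelled Pla2g3-/-, against 3.72% of all genes. For the genotypes after AOM the counts were 5 higher and 7 lower of 25, against 14.3% higher and 12.6% lower over all genes. For AOM over vehicle they were 7 higher and 8 lower of 25 in Pla2g3+/+, against 14.6% and 22.8%, and 3 higher and 6 lower of 23 in Pla2g3-/-, against 10% and 16.4%. Without scaling, the AOM counts became 12 higher and 6 lower in Pla2g3+/+ and 6 higher and 1 lower in Pla2g3-/-, and with quantile normalization the latter was 3 higher and 3 lower. In the order of the 4 comparisons the medians were 0.04, -0.31, -0.03 and -0.14 (log2), against -0.03, 0.02, -0.23 and -0.13 for all genes.

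Mgst3, a relative of Ltc4s, fell in Pla2g3+/+ as Ltc4s did. It read 34.9 and 36.6 with vehicle and 6.74 and 22.6 after AOM. The Pla2g3+/+ AOM pool was the lowest, 5.18-fold below its vehicle pool and 3.35-fold below the Pla2g3-/- AOM pool.

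Export and trimming of cysteinyl leukotrienes gave both directions. Abcc4, an exporter of eicosanoids, read 0.315 and 0.302 with vehicle and 4.24 and 1.27 after AOM, so both AOM pools were above both vehicle pools. The rise was 13.5-fold in Pla2g3+/+ and 4.20-fold in Pla2g3-/-. Abcc1, the exporter of leukotriene C4, rose by 3.53-fold in Pla2g3+/+ and 3.66-fold in Pla2g3-/-. Dpep1, a dipeptidase that trims leukotriene D4, read 14.4 and 14.8 with vehicle and 0.459 and 1.37 after AOM, a fall of 31.4-fold in Pla2g3+/+ and 10.8-fold in Pla2g3-/-. Its paralog Dpep2 went up in Pla2g3+/+, from 0.0463 to 0.286 (6.19-fold). Ggt1, which removes glutamate from leukotriene C4, was lower in the pool labelled Pla2g3-/- under both treatments, by 3.22-fold with vehicle and 2.14-fold after AOM. The latter was under 2-fold with normexp and quantile normalization (log2 -0.36). From vehicle to AOM, Ggt1 fell by 4.09-fold in Pla2g3+/+ and by 2.72-fold in Pla2g3-/-. The fall in Pla2g3-/- was under 2-fold without scaling (log2 -0.60).

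Among the enzymes that break down leukotriene B4, 2 cytochromes moved in opposite directions. Cyp4f14 read 9.26 and 8.40 with vehicle and 0.257 and 4.01 after AOM, 36.1-fold lower after AOM in Pla2g3+/+ and 15.6-fold higher in the Pla2g3-/- AOM pool than in the Pla2g3+/+ AOM pool. Cyp4f18, the form known in neutrophils, read 0.681 and 0.304 with vehicle and 2.90 and 0.306 after AOM. Under both treatments the pool labelled Pla2g3-/- was the lower, by 2.24-fold and 9.48-fold. The former was under 2-fold with normexp (log2 -0.82), on its dimmest probe (-0.82) and as the mean over its probes (-0.99).

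Of the receptors, Fpr2, which binds lipoxin A4 and formyl peptides, read 0.0239 and 0.0573 with vehicle and 0.358 and 0.0382 after AOM. The rise in Pla2g3+/+ was 14.9-fold, and the signal was 9.37-fold lower in the Pla2g3-/- AOM pool than in the Pla2g3+/+ AOM pool. The Pla2g3+/+ vehicle signal was near the limit, with an intensity of 15.5 against a lowest of 10.7 well above background. With normexp and quantile normalization the rise was 1.92 (log2). Gpr17, a relative of the cysteinyl leukotriene receptors, was highest in the Pla2g3-/- AOM pool (0.144, 0.102, 0.115 and 0.502). Ltb4r2, the low-affinity receptor of leukotriene B4, fell with AOM by 4.16-fold in Pla2g3+/+ and 3.08-fold in Pla2g3-/-. The fall in Pla2g3+/+ stayed past 2-fold under each change of scaling or background, from log2 -2.08 to -1.04. The other alternatives return the main ratio by construction, since Ltb4r2 has 1 probe, well above background on all 4 arrays. In Pla2g3-/- the fall was under 2-fold without scaling (log2 -0.78) and with normexp and quantile normalization (-0.945). Ltb4r1 and Cysltr1, the main receptors of leukotriene B4 and D4, are named after their values were seen because neither was past 2-fold in any comparison with this scaling. Ltb4r1 ran from 0.120 to 0.202 and Cysltr1 from 0.176 to 0.237. Without scaling both passed it with AOM in 1 genotype, Ltb4r1 with intensities of 84.4 and 237 in Pla2g3-/- and Cysltr1 with 113 and 276 in Pla2g3+/+.

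**Figure D5:**
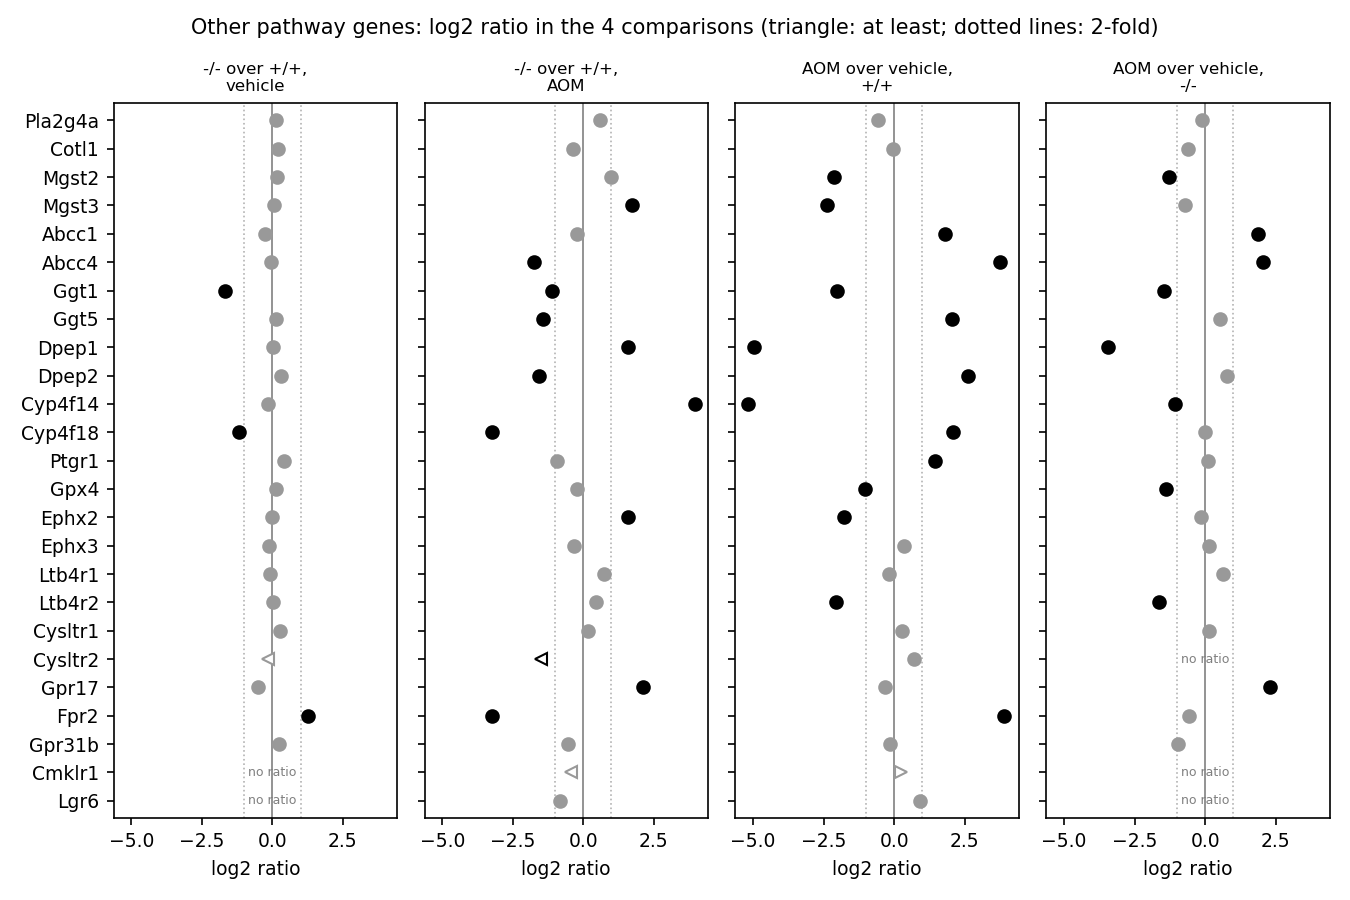
Log2 ratio of the 25 other pathway genes above background on at least 1 array, in the 4 comparisons. Filled points are ratios, open triangles are bounds, black marks a ratio past 2-fold (dotted lines). Cyp4f14 (-5.17) and Dpep1 (-4.97) lie lowest for AOM over vehicle in Pla2g3+/+, and Fpr2 (3.90) and Abcc4 (3.75) highest, while with vehicle only Ggt1, Cyp4f18 and Fpr2 are past the lines. With normexp and quantile normalization, Cyp4f18 (-0.82) and Fpr2 (0.44) were under 2-fold with vehicle.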

How the data were processed

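Colon RNA pools of 4 groups were hybridised to 4 one-color Agilent arrays on 1 slide, with 27.7 ng of RNA labelled per pool. The groups are those of the sample labels. The authors deposited spot intensities from Feature Extraction 11.5.1.1, with background subtracted and no scaling between arrays, and a table that is the ratio of intensity to the 75th percentile of the array. That ratio was recomputed and all spots were within 0.1% of it. Control and outlier spots were left out, log2 intensities of replicate spots were averaged, and the brightest probe stood for a gene, with every probe of the 10 genes reported.

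For a dim signal, the bound used the lowest signal well above background on that array, or the dim signal if higher. Differences of log2 values were formed for 4 comparisons, without a test. The number of arrays limits the precision. limma 3.58.1 in R 4.3.3 fitted genotype and treatment to genes above background on at least 1 array, with Benjamini-Hochberg adjustment, and was tested on simulated data. The simulated AOM effects were the same in both genotypes apart from noise. That check therefore does not cover arrays in which the AOM effects of the genotypes differ, as they do here. Python 3.11.15, pandas 2.3.3, numpy 2.4.6 and matplotlib 3.10.9 made the tables and figures.

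The members, lists and named genes were chosen with earlier results of these data known. Named were all members, Pla2g3, pathway genes past 2-fold (at most 6 per comparison, by size of change), the 2 brightest markers of each list discussed, and the 5 genes most like each of Alox12 and Ltc4s, the 2 members with the widest range among those above background on all 4 arrays. Coordinates are mm9 in the array files and GRCm38.p6 for promoters. The alternatives were quantile, median and no scaling, normexp with an offset of 50, the deposited table, dim probes kept, dropped or set to a floor, the mean over probes, the dimmest probe and thresholds of 1.5-fold and 4-fold. For limma they were an intensity trend, no filter and quantile normalization.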

Additional observations from a re-analysis of the deposited data

Results flagged for a closer look

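In these cases the 2 genotypes moved in opposite directions with AOM, or the genotypes differed in opposite directions under the 2 treatments, with both changes over 0.188 (log2), which is 2 SD of a ratio of replicate spots. With 1 array per group the differences were not tested. Alox5ap went up by 0.48 with AOM in Pla2g3+/+ and down in Pla2g3-/- (-0.45), a difference of -0.93, and without scaling both were up. Alox12b, on its brighter probe, was lower with vehicle in the pool labelled Pla2g3-/- (-0.23) and higher after AOM (0.40), a difference of 0.63 that its dimmer probe did not show.

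Among the pathway genes, the ratio of Pla2g3-/- over Pla2g3+/+ went from 1.26 with vehicle to -3.23 after AOM for Fpr2 (difference -4.49), and AOM over vehicle from 3.90 in Pla2g3+/+ to -0.59 in Pla2g3-/-. For Gpr17 these were -0.50 and 2.13, and -0.33 and 2.30 (difference 2.63). With normexp and quantile normalization, the Fpr2 ratio of the genotypes with vehicle was 0.44, under 2-fold. The genotype ratio changed between treatments by -1.85 for Dpep2, -1.34 for Ptgr1, -0.59 for Cotl1 and -0.78 for Gpr31b. The AOM effect differed between genotypes by 0.83 for Ltb4r1. The opposite directions with AOM depend on the scaling for Fpr2, Gpr17 and Ltb4r1, whose unscaled intensities were higher after AOM in both genotypes. Pla2g3 itself fell with AOM in Pla2g3+/+ and rose in the pools labelled Pla2g3-/- on 2 of its 3 probes, with a difference of 2.28 on the brightest and 2.66 on the second. The third was higher after AOM in both, at least 1.88-fold in Pla2g3+/+ and 2.24-fold in Pla2g3-/-.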

How the results depend on the processing

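No paired analysis was possible because each group was 1 pool on 1 array with no replicate number. No ratio past 2-fold changed sign under the alternatives that recompute it, at most 10 for each. Of 115 recomputed member ratios past 2-fold, 15 came under it, as did 26 of 387 ratios of pathway genes. These totals include ratios that could not move. For a gene with 1 probe well above background on both arrays, only a change of scaling or background alters the ratio. With normexp and quantile normalization, the members past 2-fold were 0 (genotypes, vehicle), 1 (genotypes, AOM), 2 (AOM over vehicle, Pla2g3+/+) and 0 (Pla2g3-/-), and pathway genes 1 for the genotypes with vehicle and 4 for AOM over vehicle in Pla2g3-/-. Keeping dim probes as measured gave 2 members for the genotypes with vehicle, and requiring both arrays above background gave 0 there and 1 for AOM over vehicle in Pla2g3-/-. At 4-fold the members were 0, 1, 2 and 0 in the order above, and the pathway genes 0 and 4 for the genotypes with vehicle and after AOM and 3 for AOM over vehicle in Pla2g3-/-. At 1.5-fold that last count was 15. The share of all genes was counted only at 2-fold with the main processing, so the counts under these alternatives have no background beside them. limma called 0 members under an intensity trend, without a filter and with quantile normalization. Alox15, Alox12e and the dimmer Alox12 probe lay near background with vehicle, so their ratios there are bounds, and 1 array per group leaves the spread between mice unmeasured.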

Other observations

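The values of Ltc4s over the 4 arrays were most like those of Mrpl51, Sri, Cisd3, Rps12 and 1010001B22Rik, with root mean square differences of 0.02 to 0.03 (log2) among 18082 genes. The first of these, Mrpl51, read 34.6 and 35.9 with vehicle and 15.8 and 20.2 after AOM in Pla2g3+/+ and Pla2g3-/-.

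The second group of lipoxygenases on chromosome 11, Aloxe3, Alox12b and Alox8, lies within 35 kb. Of 20 other genes within 200 kb, AOM over vehicle in Pla2g3+/+ put 1 of 16 higher and 5 lower past 2-fold (median log2 -0.58), against 14.6% higher and 22.8% lower over all genes.

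The 5 eosinophil markers, a cell type in which Ltc4s and Alox15 are known, summed to 0.468, 0.371, 0.471 and 0.131 in the order Pla2g3+/+ vehicle, Pla2g3-/- vehicle, Pla2g3+/+ AOM and Pla2g3-/- AOM. Siglec5 (Siglec-F) led with vehicle and Prg2 in the Pla2g3+/+ AOM pool. Epx was not well above background on any array. The 4 B cell markers summed to 2.75, 2.16, 0.949 and 0.140, and the 6 goblet cell markers to 1018, 1050, 162 and 428. The part of these cells in the lipoxygenase ratios was not tested.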
